A study of Mus musculus with 8 samples.

Results

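Triglyceride, the fat that hepatocytes store in lipid droplets and export in very low density lipoprotein (VLDL), is made and broken down by a small set of enzymes and droplet proteins. Levels of 10 genes of this set were described in mouse liver: the synthesis genes Gpam, Agpat2, Lpin1, Lpin2, Dgat1 and Dgat2, and the lipolysis and droplet genes Pnpla2, G0s2, Plin5 and Cideb. The genes were taken by symbol, and 10 of 10 were among the 15864 genes listed with counts. RNA came from livers of chow-fed mice in 2 groups, 3 wild-type (WT) controls and 5 knockouts of genotype Alb-cre Mfrn1-/- Mfrn2 -/-, which carry Cre under the albumin promoter and are labelled as lacking both mitoferrins, the carriers that bring iron into mitochondria. The controls were described as matched in age. The ages and the sex of the mice were not given, and Alb-cre was named for the knockouts only, so its presence and the loss of the carriers cannot be told apart. The comparison asks how liver transcripts differ between these knockouts and the controls. Alb-cre acts in hepatocytes, and the genotype does not say whether the loss of each carrier is confined to these cells. Whole liver also holds other cell types, and whether Alb-cre acted in any of them was not tested.

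In the glycerol phosphate pathway, acyl groups are added one by one to glycerol 3-phosphate. Gpam adds the first at the mitochondrial outer membrane, Agpat2 adds the next to make phosphatidic acid, the lipins Lpin1 and Lpin2 remove the phosphate to leave diacylglycerol, and Dgat1 or Dgat2 adds the last. Pnpla2 (adipose triglyceride lipase) removes the first fatty acid from stored triglyceride and is inhibited by G0s2. Plin5 coats droplets and brings them to mitochondria, and Cideb acts in hepatocytes on droplet fusion and on the loading of VLDL with lipid. In liver these genes are known to respond to fasting, feeding and time of day.

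The libraries held 35484499 to 43072524 counts in the controls and 24600340 to 31887401 in the knockouts, and each of the 10 genes had at least 499 counts in every library. Slc25a28 (mitoferrin 2) was at 16.6 to 18.1 CPM, counts normalised for library size with TMM scaling, in the controls and 0.592 to 0.888 CPM in the knockouts (edgeR adjusted p = 1.92e-07). Slc25a37 (mitoferrin 1) was at 12.9 to 23.0 and 5.76 to 10.6 CPM, without overlap of the groups (adjusted p = 0.104 in edgeR and 0.000337 in DESeq2). Among the knockouts 3 libraries stood apart. Clock genes were shifted in knockout replicates 1 and 2, where Dbp was at 69.3 and 54.5 CPM against 1.23 to 2.93 CPM in the other 6 libraries. Of 10 fasting-responsive genes, 8 were highest of the 8 libraries in knockout replicate 3, beside 17.0% of all tested genes. The controls and knockout replicates 4 and 5 have sample titles that begin with 82, and knockout replicates 1 to 3 have titles that begin with 85. The labels do not say what these numbers mean. The summed level of 8 hepatocyte markers was 96223 to 101391 CPM in the controls and 94740 to 105415 CPM in the knockouts. Of 7 adipocyte markers, Adipoq, Plin1, Lep, Retn and Cfd were not among the genes listed, and Fabp4 and Cidec summed to 4.70 to 5.87 and 4.88 to 10.3 CPM. Kupffer cell markers summed to 392 to 715 CPM in the controls and 428 to 801 CPM in the knockouts, and sinusoidal endothelial markers to 409 to 506 and 406 to 539 CPM. Stellate cell markers summed to 634 to 679 and 605 to 664 CPM, cholangiocyte markers to 35.4 to 45.6 and 36.8 to 59.3 CPM, lymphocyte markers to 21.8 to 38.8 and 25.9 to 43.1 CPM, and erythroid markers to 192 to 289 and 97.2 to 398 CPM.

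Per length of transcript the 10 genes spanned a wide range. On the FPKM scale of the authors, which divides by the bases listed for each gene, Dgat2 had the highest control level at 227 ± 1.54 (SD, n = 3), followed by Agpat2 at 126 ± 2.53, G0s2 at 104 ± 30.3 and Gpam at 88.5 ± 4.51 FPKM. Cideb (49.7 ± 1.37), Plin5 (26.2 ± 5.57), Lpin2 (18.5 ± 4.83) and Lpin1 (16.3 ± 4.40 FPKM) came next. The level of Dgat1 (7.37 ± 0.399 FPKM) and that of Pnpla2 (6.84 ± 0.291 FPKM) were the lowest. Control levels overlapped between the neighbours G0s2 and Gpam, Plin5 and Lpin2, Lpin2 and Lpin1, and Dgat1 and Pnpla2. Elsewhere in this order the 3 control libraries of a gene lay above those of the next. Lpin2 is listed with 12233 bases and Lpin1 with 5725, so a Lpin2 transcript shorter than that would have a higher level per length. By knockout means G0s2 (159 FPKM) stood above Agpat2 (110.0 FPKM) and Pnpla2 (8.10 FPKM) above Dgat1 (6.59 FPKM), while the other ranks were the same.

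**Figure D1:**
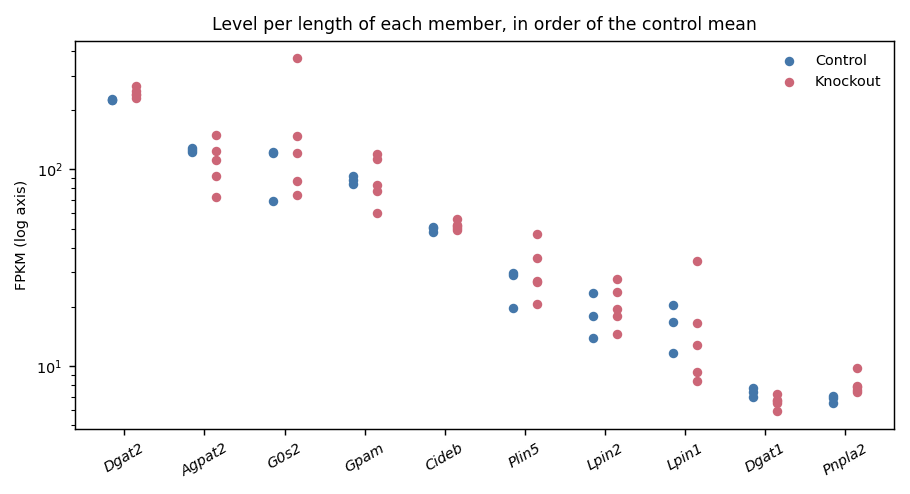
Levels of the 10 genes in FPKM, the authors' length-scaled unit, on a log axis, with 1 point per library and genes in the order of their control means. Control means run from 227 for Dgat2 to 6.84 for Pnpla2, and G0s2 has the widest knockout spread.

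No gene of the set passed the test between knockout and control. EdgeR's quasi-likelihood test with Benjamini-Hochberg adjustment called 0 of the 10, where 0.109% of 14664 tested genes were called, 0.0477% higher and 0.0614% lower in the knockouts, and adjusted p ranged from 0.453 for Pnpla2 to 0.991 for Lpin1. DESeq2 and limma-voom also called 0 of the 10, with 1.62% and 0.123% of all genes called. The authors' deposited table called 0 of the 10 and 1.48% of all genes. At an unadjusted p under 0.05, edgeR, DESeq2 and limma-voom each had 1 of the 10, by edgeR Pnpla2, beside 10.4% of all tested genes by edgeR. The log2 fold change was positive for 7 genes and negative for 3, with a median of 0.09, against a median of 0.00 and 49.2% positive over all tested genes. For 9 of the 10 it was under 0.3 in size. Pnpla2 was the only gene of the 10 whose groups did not overlap, in a table where 3.20% of tested genes lay higher in every knockout than in every control and 3.74% lower, 6.94% in all. In bulk liver, fewer cells of a type and less RNA per cell cannot be told apart.

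**Figure D2:**
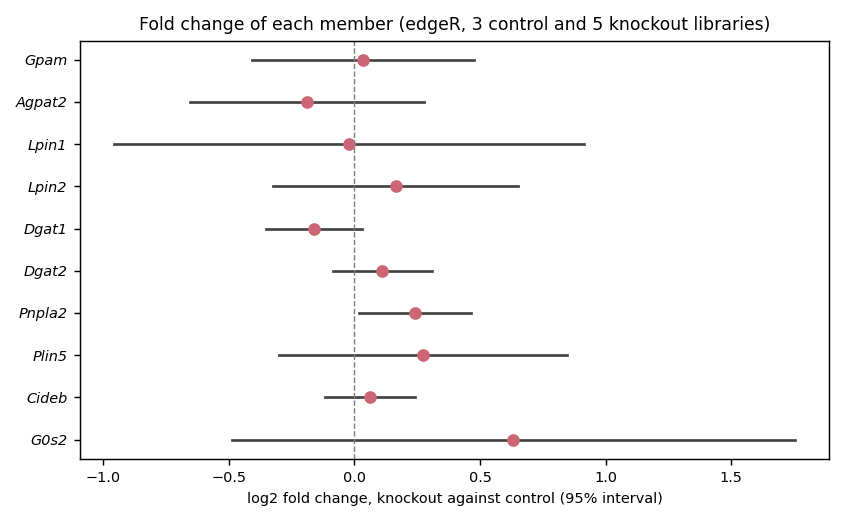
Log2 fold change of knockout against control for each gene from edgeR's fit of 3 control and 5 knockout libraries, with points for the estimate and lines for the 95% interval. Intervals are narrow for Dgat1, Dgat2, Cideb and Pnpla2 and wide for Lpin1 (-0.96 to 0.91) and G0s2 (-0.49 to 1.75), and only that of Pnpla2 (0.02 to 0.46, before adjustment for the number of genes) leaves out 0.

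Gpam (ENSMUSG00000024978, minus strand of chromosome 19, 55069734 to 55099451, mm10) encodes the mitochondrial glycerol 3-phosphate acyltransferase that opens the pathway. It read 348, 346 and 324 CPM across control replicates 1 to 3, and the knockout libraries 1 to 5 read 428, 448, 309, 229 and 322 CPM. Knockout replicates 1 and 2 lay above every control and replicates 3, 4 and 5 below every control, and the group means were 339 ± 13.5 and 347 ± 90.5 CPM (SD, n = 3 and 5). The log2 fold change was 0.03 ± 0.197 (SE, edgeR adjusted p = 0.973). Without knockout replicates 1 and 2 it was -0.23, and among the samples numbered 82 it was -0.30 (edgeR adjusted p = 0.805 and 0.631). Gpam lies 11.4 Mb from the deleted Slc25a28.

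Agpat2 (ENSMUSG00000026922, minus strand of chromosome 2, 26593057 to 26604417) encodes the acyltransferase of the next step, whose loss causes lipodystrophy. It read 256, 279 and 269 CPM across the controls, against 154, 194, 329, 262 and 238 CPM across the knockouts. Knockout replicates 1 and 2 were the lowest of the 8 libraries and replicate 3 the highest. Group means were 268 ± 11.1 and 235 ± 66.9 CPM (SD, n = 3 and 5), for a log2 difference of -0.19 ± 0.208 (SE, adjusted p = 0.787 in edgeR) that was 0.05 without knockout replicates 1 and 2 and -0.33 without knockout replicate 3. The gene overlaps Egfl7 and Gm20532 on the other strand in GENCODE M21, at 35.8 to 43.6 and 5.88 to 8.06 CPM over the 8 libraries. By the listed spans Egfl7 ends at 26593120, just inside Agpat2, while Gm20532 runs from 26586639 to 26635634, across all of it. Whether counting used the strand of a read is not given in the sources used here. Reads from bases that such genes share therefore cannot be told apart.

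Lpin1 (ENSMUSG00000020593, minus strand of chromosome 12, 16535669 to 16589770) and Lpin2 (ENSMUSG00000024052, plus strand of chromosome 17, 71182560 to 71249817) encode lipin phosphatases, of which Lpin1 also acts as a transcriptional coactivator in liver. Lpin1 read 65.6, 119.5 and 97.1 CPM across the controls, against 94.5, 192, 54.9, 48.1 and 73.8 CPM across the knockouts. Knockout replicate 2 was the highest library and knockout replicates 3 and 4 were the lowest, a range of 3.99-fold within the knockouts and 1.82-fold within the controls. Control libraries averaged 94.1 ± 27.1 CPM and knockout libraries 92.6 ± 58.3 CPM (SD, n = 3 and 5), for a log2 difference of -0.02 ± 0.418 (SE, adjusted p = 0.991 in edgeR) and a 95% interval of 0.515-fold to 1.88-fold. Lpin2 read 216, 173 and 289.7 CPM across the controls, against 289, 333, 227, 178 and 239 CPM across the knockouts. Knockout replicate 2 was again the highest library and the only knockout outside the range of the controls, and the log2 fold change of Lpin2 was 0.16 ± 0.217 (SE, edgeR adjusted p = 0.832). Without knockout replicates 1 and 2 the log2 fold change was -0.66 for Lpin1 and -0.07 for Lpin2 (edgeR adjusted p = 0.603 and 0.963).

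Dgat1 (ENSMUSG00000022555, minus strand of chromosome 15, 76502015 to 76511951) and Dgat2 (ENSMUSG00000030747, minus strand of chromosome 7, 99153663 to 99182713) encode unrelated enzymes for the last acylation. Dgat1 read 23.2, 21.7 and 22.6 CPM across the controls, against 21.8, 17.7, 21.2, 20.1 and 19.9 CPM across the knockouts. In 4 of 5 knockouts it was below every control, and knockout replicate 1 lay just above the lowest control. Means were 22.5 ± 0.743 and 20.1 ± 1.58 CPM (SD, n = 3 and 5), for a log2 difference of -0.16 ± 0.0853 (SE, adjusted p = 0.536 in edgeR). Dgat2 lay the other way, reading 503, 519.9 and 512 CPM across the controls and 532, 507, 560.0, 594 and 568 CPM in the knockouts, of which 4 of 5 were above every control. Its log2 fold change was 0.11 ± 0.0880 (SE, edgeR adjusted p = 0.694), with a 95% interval of 0.942-fold to 1.24-fold. Dgat2 and Cideb varied little within groups: their within-group SD of log2 CPM (0.0731 and 0.0796) was at percentiles 3.55 and 5.08 of all tested genes.

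Pnpla2 (ENSMUSG00000025509, plus strand of chromosome 7, 141455198 to 141460743), the lipase, read 19.2, 21.8 and 21.0 CPM across the controls, against 23.8, 28.9, 23.6, 22.2 and 23.7 CPM across the knockouts. Every knockout lay above every control, with the gap from 21.8 to 22.2 CPM narrow and knockout replicate 2 apart from the rest. Means were 20.7 ± 1.32 and 24.4 ± 2.59 CPM (SD, n = 3 and 5), or 118% of control, with a log2 difference of 0.24 ± 0.0993 (SE, edgeR unadjusted p = 0.0363, adjusted p = 0.453). It was 0.15 among the samples numbered 82 and 0.18 without knockout replicate 2 (edgeR adjusted p = 0.702 and 0.625). Abhd5, the coactivator of this lipase, was at 34.1 to 35.6 CPM in the controls and 33.6 to 54.6 CPM in the knockouts (log2 fold change 0.32 ± 0.136, SE, edgeR adjusted p = 0.458).

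G0s2 (ENSMUSG00000009633, minus strand of chromosome 1, 193272161 to 193273188), the inhibitor of Pnpla2, had the greatest spread of the set. It read 100.4, 59.4 and 103 CPM across the controls, against 61.6, 72.1, 319, 124 and 102 CPM across the knockouts. Knockout replicate 3 was far above the other 7 libraries, while knockout replicates 1 and 2 lay within the range of the controls. The knockouts differed 5.17-fold among themselves, and the within-group SD of 0.802 on the log2 scale was at percentile 96.9 of all tested genes. The log2 fold change was 0.63 ± 0.501 (SE, edgeR adjusted p = 0.693) and 0.04 without knockout replicate 3 (edgeR adjusted p = 0.966). In GENCODE M21, but not by the spans of the deposited table, G0s2 overlaps Lamb3 on the other strand, which was at 2.06 to 4.65 CPM in 7 libraries and 13.5 CPM in knockout replicate 3. Of the adipocyte markers listed, Cidec, which is also a droplet gene, was highest there at 4.78 CPM. Fabp4 was not, at 5.53 CPM there against 6.61 and 5.61 CPM in knockout replicates 1 and 2. The part of other cell types in the level of G0s2 was not tested.

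Plin5 (ENSMUSG00000011305, minus strand of chromosome 17, 56111601 to 56117596), the perilipin that links droplets to mitochondria, read 59.5, 42.1 and 62.4 CPM across the controls, against 43.1, 54.9, 102, 73.5 and 57.0 CPM across the knockouts. Knockout replicate 3 was again the highest library, and control replicate 2 and knockout replicate 1 were the lowest. Its log2 fold change was 0.27 ± 0.256 (SE, edgeR adjusted p = 0.738) and 0.07 without knockout replicate 3 (edgeR adjusted p = 0.912). Cideb (ENSMUSG00000022219, minus strand of chromosome 14, 55754045 to 55758458) read 73.2, 73.4 and 76.4 CPM across the controls, against 77.2, 75.3, 86.7, 74.9 and 73.6 CPM across the knockouts. All but knockout replicate 3 lay within a few CPM of each other, and the log2 fold change was 0.06 ± 0.0804 (SE, edgeR adjusted p = 0.829), with a 95% interval of 0.921-fold to 1.18-fold. Cideb lies 13.5 Mb from the deleted Slc25a37 and overlaps Nop9 on the other strand, which was at 16.9 to 19.8 CPM.

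**Figure D3:**
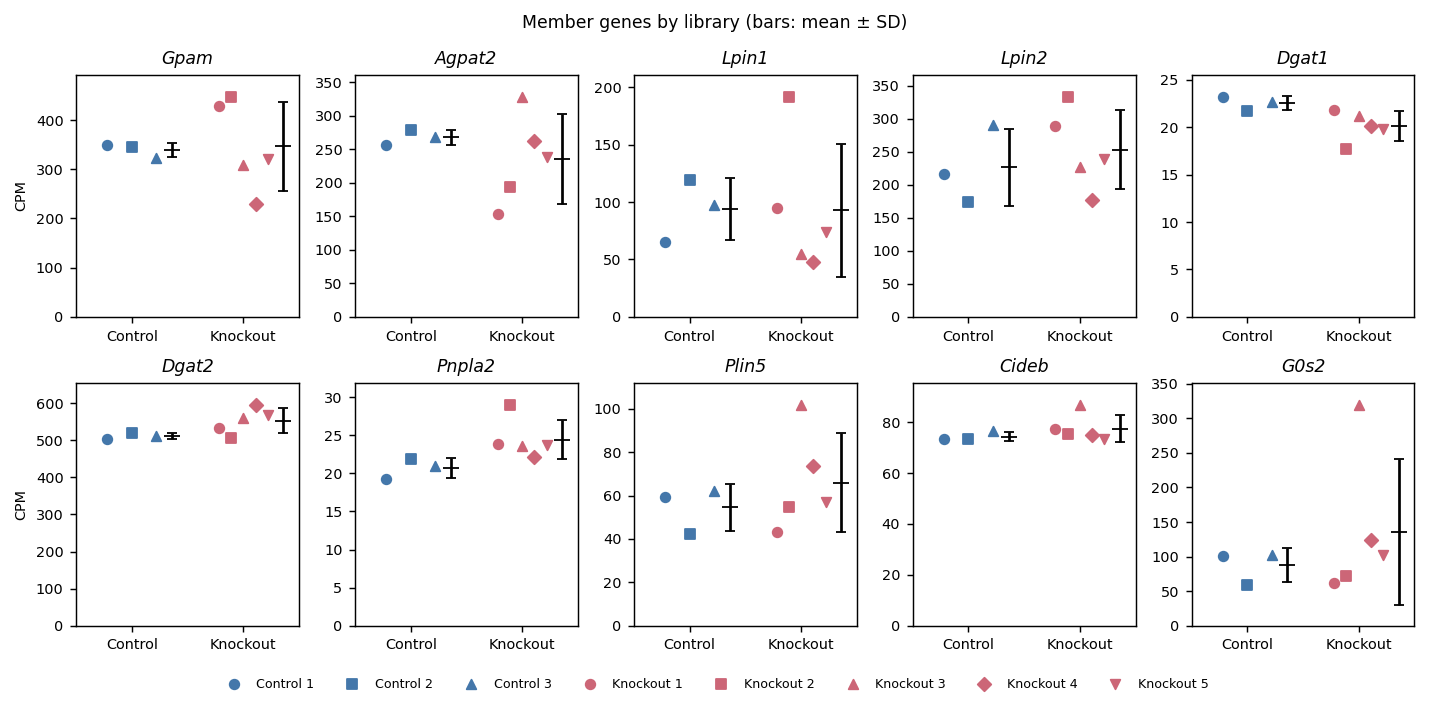
CPM of the 10 genes in every library, with 1 marker shape per replicate, axes from 0, and bars for the mean ± SD of 3 controls and 5 knockouts. Every knockout is above every control for Pnpla2 only, and knockout replicate 3 reaches 319 CPM for G0s2 where the next library is at 124 CPM.

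Promoter sequence is shown for Pnpla2, the gene whose groups did not overlap, for G0s2, the gene with the greatest spread, and for Lpin2, whose promoter held the only motif match. Each is the 250 bases before a start annotated in RefSeq (GRCm38.p6, the assembly of mm10), written 5′ to 3′ on the strand of the gene, at chr7:141454938-141455187, chr1:193273189-193273438 and chr17:71183282-71183531. Capitals mark the motif match.
Pnpla2: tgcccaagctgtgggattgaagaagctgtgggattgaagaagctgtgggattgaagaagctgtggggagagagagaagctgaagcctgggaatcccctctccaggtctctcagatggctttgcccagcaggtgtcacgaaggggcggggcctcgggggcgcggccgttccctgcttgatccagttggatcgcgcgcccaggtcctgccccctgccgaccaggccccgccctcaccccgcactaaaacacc
G0s2: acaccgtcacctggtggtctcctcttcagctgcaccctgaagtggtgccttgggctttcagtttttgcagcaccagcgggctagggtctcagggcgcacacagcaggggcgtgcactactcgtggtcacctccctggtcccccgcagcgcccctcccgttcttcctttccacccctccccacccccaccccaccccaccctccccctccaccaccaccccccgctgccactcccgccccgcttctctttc
Lpin2: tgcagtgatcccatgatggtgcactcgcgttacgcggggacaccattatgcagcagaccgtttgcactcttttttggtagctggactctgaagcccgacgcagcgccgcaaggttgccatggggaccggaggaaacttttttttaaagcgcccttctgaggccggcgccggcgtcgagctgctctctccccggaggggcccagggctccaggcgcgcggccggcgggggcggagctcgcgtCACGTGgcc
The RefSeq table held 12 promoter windows for 8 of the 10 genes. Each window of 300 bases, 250 before and 50 after the start, was searched on both strands for 6 motifs. These were the E-box CACGTG and the D-box TTATGTAA of clock factors, the sterol element TCACNCCAC, and the RORE, the direct repeat of PPAR dimers and the glucocorticoid element. The only match was an E-box just before the start in 1 of 3 Lpin2 windows, which lies inside the span listed for the gene, and 7.15% of 32851 promoter windows held an E-box. The share was 0.938% for the D-box, 0.219% for RORE, 0.0396% for the direct repeat, 1.24% for the sterol element and 0.475% for the glucocorticoid element. A match describes these letters only, and no match says only that they are not in these windows.

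The highest library was not the same for all of the 10 genes. Knockout replicate 2 was the highest of the 8 libraries for 4 of them, Gpam, Lpin1, Lpin2 and Pnpla2, where it was the highest for 11.7% of all tested genes. Knockout replicate 3 was the highest for another 4, Agpat2, Plin5, Cideb and G0s2, where it was the highest for 17.0% of all tested genes. Fasting-responsive, feeding-responsive and clock genes also differed between these libraries. In knockout replicate 3 the fasting-responsive fatty acid hydroxylase Cyp4a14 was at 2037 CPM against 142 to 533 CPM in the other libraries, the thioesterase Acot1 at 99.5 against 7.09 to 26.8 CPM and the hormone Fgf21 at 33.7 against 3.31 to 11.7 CPM. G6pc and Igfbp1 of the fasting-responsive list were not highest there, at 584 and 109 CPM against 640 and 148 CPM in knockout replicate 5. Of 8 feeding-responsive genes, 6 were highest in knockout replicate 2, with fatty acid synthase (Fasn) at 2761 CPM against 781 to 1642 CPM elsewhere. Scd1 of this list was not, at 4504 CPM there against 10325 CPM in knockout replicate 5. The clock activator Arntl was at 13.2 and 7.21 CPM in knockout replicates 1 and 2 and at 37.0 to 43.6 CPM elsewhere. No gene of these 3 lists passed in edgeR, DESeq2 or limma-voom, and their median log2 fold changes were 0.41, 0.39 and 0.49. The part of feeding state and time of day in the levels of the 10 genes was not tested.

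**Figure D4:**
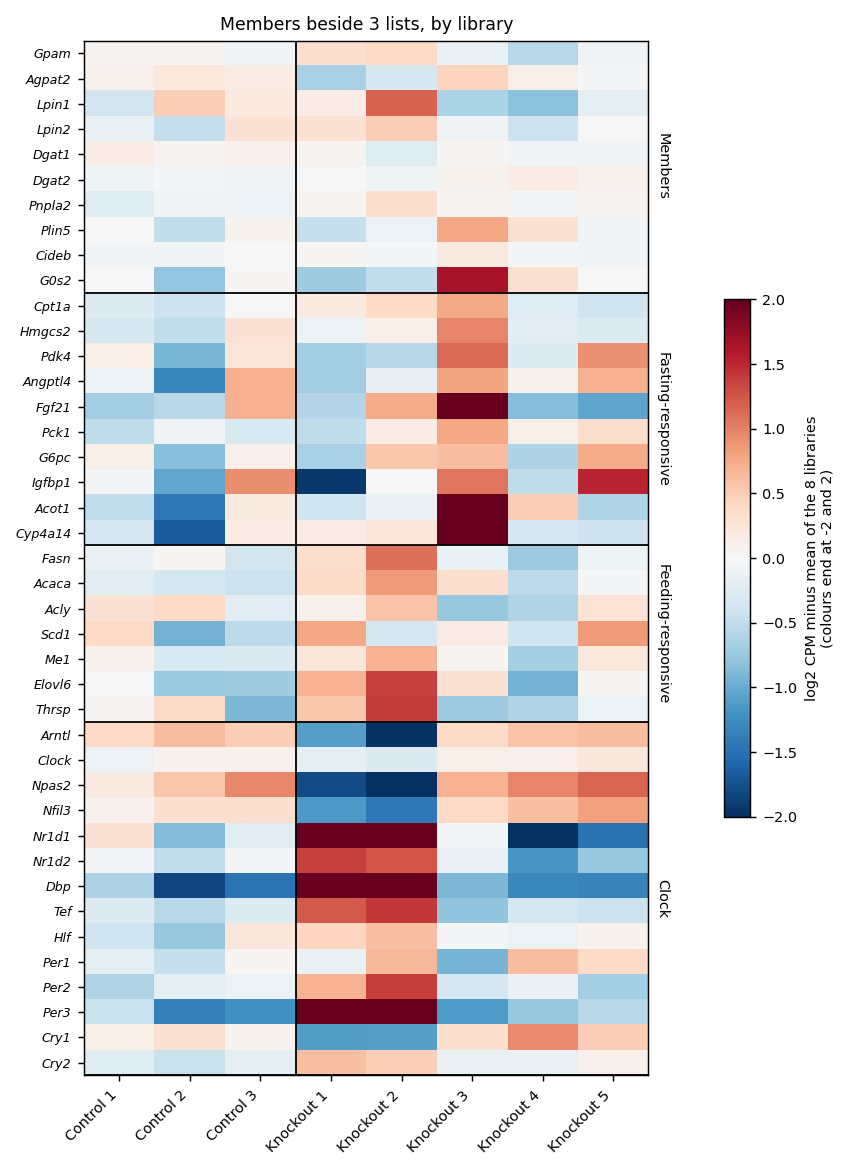
Log2 CPM of each gene minus its mean over the 8 libraries, for the 10 genes and for tested genes of the fasting-responsive, feeding-responsive (all but 1) and clock lists, with 1 column per library and colours that end at -2 and 2. Knockout replicate 3 is the highest library for G0s2, Plin5 and 8 of the 10 fasting-responsive genes, and knockout replicates 1 and 2 stand out in the clock genes.

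Genes most like the 2 most variable genes were named by the root mean square difference of log2 CPM, centred on the mean of the 8 libraries. For Lpin1 they were Fdps, Dhcr7 and Lss, at 0.29, 0.29 and 0.30, where the median over all tested genes was 0.64. All are enzymes of sterol synthesis, and each was highest in knockout replicate 2 (326, 91.7 and 246 CPM) as Lpin1 was. For G0s2 they were Tor3a, 1500015A07Rik and Spon2, at 0.21, 0.32 and 0.32, with a median of 0.76. Each was highest in knockout replicate 3 (41.8, 5.72 and 52.7 CPM). The genes named for Lpin1 and G0s2 were picked for likeness over the same 8 libraries, so a shared highest library follows from the choice.

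Among 43 other tested genes of triglyceride synthesis, lipolysis, droplets and VLDL export, edgeR and limma-voom called 0 and DESeq2 called 3, Pnpla3, Gpat2 and Ces1g. The authors' deposited table also called 3. Over all genes the shares called were 0.109% by edgeR, 0.123% by limma-voom, 1.62% by DESeq2 and 1.48% in the deposited table. At an unadjusted p under 0.05 there were 4 higher and 2 lower, where the shares over all tested genes were 5.67% and 4.68%, and the median log2 fold change was 0.10. Knockout replicate 3 was the highest library for 25 of the 43, where it was the highest for 17.0% of all tested genes. Its droplet coat gene Plin2 was at 1269 CPM against 430.0 to 731 CPM elsewhere, Cidec at 4.78 against 0.252 to 1.26 CPM and the monoacylglycerol acyltransferase Mogat1 at 3.59 against 0.299 to 1.33 CPM. Cidec and Mogat1 were low, with 8 to 121 and 8 to 91 counts per library. The droplet genes Plin3 and Tmem159 were lowest in this library, at 42.1 against 43.5 to 58.7 CPM and 2.13 against 2.36 to 3.22 CPM.

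Of the other acyltransferases, phosphatases and precursor genes, 0 of 16 passed in edgeR and 1 in DESeq2, beside 0.109% and 1.62% of all genes. Gpat2, a low glycerol 3-phosphate acyltransferase gene, was at 1.52 to 2.24 CPM in the controls and 2.25 to 3.75 CPM in the knockouts (log2 fold change 0.79 ± 0.208, SE, adjusted p = 0.233 in edgeR and 0.0348 in DESeq2). Lpin3, the remaining lipin, was at 7.66 to 8.87 and 5.25 to 7.01 CPM (log2 fold change -0.47 ± 0.120, SE, edgeR adjusted p = 0.226). In both genes the groups did not overlap, as in 6.94% of all tested genes. For Gpat2 the gap was very narrow, from 2.241 CPM in control replicate 3 to 2.250 CPM in knockout replicate 3, where 1 count is 0.0395 CPM. The acyl-CoA synthetases Acsl4 and Acsl5 had log2 fold changes of 0.28 and -0.18 (edgeR adjusted p = 0.550 and 0.666).

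Of 11 other lipases and cofactors 0 passed in edgeR and 2 in DESeq2, beside 0.109% and 1.62% of all genes. Pnpla3, a lipase relative of droplets, was at 16.3 to 24.2 CPM in the controls and 30.9 to 60.3 CPM in the knockouts, all of them higher (log2 fold change 1.27 ± 0.257, SE, adjusted p = 0.131 in edgeR and 0.000106 in DESeq2). Ces1g, of a carboxylesterase family whose close copies make the assignment of reads uncertain, was at 345 to 390 and 197 to 313 CPM, all knockouts lower (log2 fold change -0.55 ± 0.146, SE, adjusted p = 0.244 in edgeR and 0.0372 in DESeq2). Hepatic lipase, Lipc, stood at a log2 difference of -0.17 (adjusted p = 0.535 in edgeR).

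Of 13 other droplet coat and assembly genes 0 passed in edgeR, DESeq2 or limma-voom, and Plin1 and Cidea were not among the genes listed. The log2 fold change of Cidec, a droplet fusion gene, was 1.60 ± 0.869 (SE, edgeR adjusted p = 0.550) and 0.50 without knockout replicate 3. That of 1110057K04Rik, a droplet-associated hydrolase, was 0.10, that of Fitm1 -0.59 and that of the seipin gene Bscl2 -0.14 (edgeR adjusted p = 0.681, 0.658 and 0.705). For VLDL export, Mttp, which loads apolipoprotein B with lipid, was at 286 to 357 CPM in the controls and 354 to 582 CPM in the knockouts (log2 fold change 0.50 ± 0.171, SE, edgeR adjusted p = 0.367), and Tm6sf2 stood at a log2 difference of 0.11 (adjusted p = 0.698 in edgeR).

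Regulators of these genes gave 0 of 16 that passed in edgeR and 1 in DESeq2, beside 0.109% and 1.62% of all genes. Ppara, the receptor that drives the fasting response, was at 109 to 157 CPM in the controls and 154 to 213 CPM in the knockouts (log2 fold change 0.55 ± 0.155, SE, adjusted p = 0.264 in edgeR and 0.0479 in DESeq2). Foxo1, Insig2 and Pparg had log2 fold changes of 0.37, -0.62 and -0.43 (edgeR adjusted p = 0.488, 0.575 and 0.581). In the fasting-responsive list Pck1 and Cyp4a14 were at log2 fold changes of 0.52 and 1.18, and in the feeding-responsive list Acaca, Elovl6 and Acly at 0.60, 0.92 and -0.18 (edgeR adjusted p from 0.467 to 0.873). Without knockout replicate 3 the values of Pck1 and Cyp4a14 were 0.35 and 0.38, and without knockout replicates 1 and 2 those of Acaca and Elovl6 were 0.30 and 0.33. Of the clock genes, Dbp, Cry2, Arntl and Npas2 had log2 fold changes of 3.75, 0.50, -0.50 and -0.28 (edgeR adjusted p = 0.413, 0.402, 0.752 and 0.921), and 0.06, 0.24, 0.03 and 0.37 without knockout replicates 1 and 2.

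Ratios of 3 pairs within a library were set against each other by a two-sided exact permutation test, whose 56 arrangements allow no p under 0.0179. The ratio of Dgat1 to Dgat2 in CPM was 0.0461, 0.0418 and 0.0442 in the controls and 0.0409, 0.0348, 0.0379, 0.0339 and 0.0349 in the knockouts, all 5 below all 3. On the log2 scale the means were -4.50 ± 0.0709 and -4.78 ± 0.111 (SD, n = 3 and 5), a difference of -0.27 (exact permutation p = 0.0357, 0.107 adjusted over the 3 ratios). The ratio of inhibitor to lipase, G0s2 to Pnpla2, was 5.22, 2.72 and 4.90 in the controls and 2.59, 2.49, 13.5, 5.60 and 4.31 in the knockouts, with knockout replicate 3 apart and the rest in the range of the controls or close to it (log2 difference 0.17, exact permutation p = 0.857, adjusted 0.857). It was -0.22 without knockout replicate 3. The ratio of Lpin1 to Lpin2 was 0.304, 0.690 and 0.335 in the controls and 0.326, 0.575, 0.242, 0.271 and 0.309 in the knockouts (log2 difference -0.33, exact permutation p = 0.446, adjusted 0.670), with replicate 2 the highest of both groups. The pairs were chosen with earlier results known, so the p of Dgat1 to Dgat2 is no independent evidence.

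**Figure D5:**
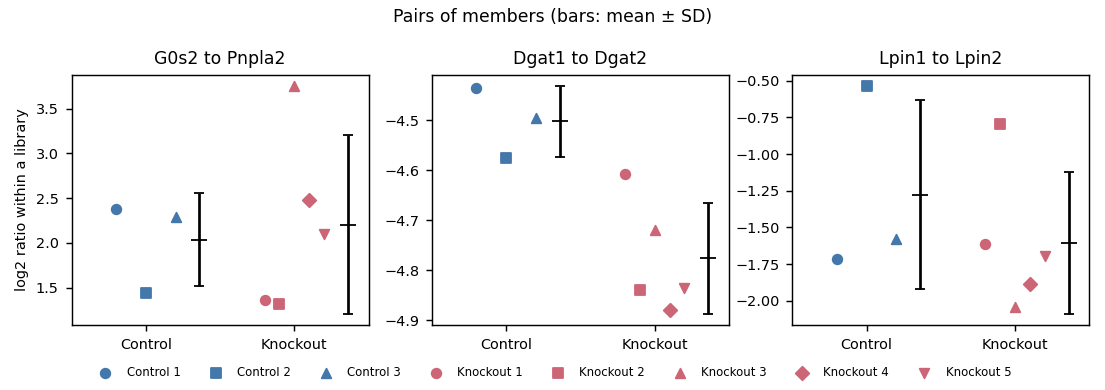
Log2 ratio of CPM within each library for 3 pairs of genes, with 1 marker per library and bars for the mean ± SD of 3 controls and 5 knockouts. Every knockout is below every control for Dgat1 to Dgat2 (-4.61 at most against -4.58 at least), and the groups overlap for the other pairs.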

How the data were processed

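Liver RNA of 8 samples, 3 WT and 5 KO, was made into stranded total RNA libraries after removal of ribosomal RNA, per the labels' protocols. Per the submitters' processing notes the authors used Novoalign 2.8, mm10 and DESeq2. The counting program is not given in the sources used here. Per the file headers the deposited table holds raw counts per gene, FPKM and regularised log2 values (not used here), the authors' log2 fold change, and a score taken as minus 10 times log10 of their adjusted p. Table starts, which count from 0, were shifted by 1 base to count from 1.

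Low genes were left out by filterByExpr in edgeR 4.0.16 (min.count 10, min.total.count 15) in R 4.3.3, which kept 14664 of 15864. Counts were scaled by TMM and tested by edgeR's quasi-likelihood test with group as the only term. P-values were Benjamini-Hochberg adjusted over all tested genes (threshold 0.05). An SE is the fold change over the root of F. Log2 CPM used a prior count of 2. DESeq2 1.42.0, limma-voom of limma 3.58.1 and the other settings described in the closing section were alternatives. Procedures were checked on simulated counts. A chi-square statistic between replicates of 28.1 to 77.3 per gene was above sampling noise, so no library was merged. The labels do not say that replicates are separate animals, so p-values cover only the spread among these libraries, which may be technical. Intervals for single genes are 95% and unadjusted.

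Same-numbered control and knockout samples did not deviate together (correlations across genes of 0.0728, 0.0606 and -0.0831), so numbers were not taken as pairs. The members, lists and ratios were chosen with earlier results of these data known. Genes were named by a rule: the members, the deleted genes, the 2 of each pathway list with the smallest p in each direction, and the 3 genes most like the 2 most variable members. Genes named otherwise were chosen after their values were seen. They were Egfl7, Gm20532, Nop9 and Lamb3, which overlap members, and Fasn, Scd1, Acot1, Fgf21, G6pc, Igfbp1, Plin2, Plin3, Tmem159, Mogat1 and Fabp4. Markers are given as sums, and 1 gene that the rule names is not reported here. Symbols were matched as the table gives them. Promoters are from the RefSeq table of GRCm38.p6.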

Additional observations from a re-analysis of the deposited data

Results flagged for a closer look

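In the 5 knockouts 3 of the 13 quantities checked (10 genes and 3 ratios) had 1 library far from the others. The gap was over 0.71 of the range, which chance gives in about 1 group of 20 if values are normally spread. For the genes the check used CPM, and whether CPM are spread in this way was not tested. G0s2 was at 319 CPM in knockout replicate 3, with the next knockout at 124 CPM. Cideb was at 86.7 CPM in the same library, with the next at 77.2 CPM. Pnpla2 was at 28.9 CPM in knockout replicate 2, with the next at 23.8 CPM. The first 2 of these depend on the scale. Log2 CPM minus the mean of all libraries was 1.65 for G0s2 in knockout replicate 3, 0.30 in the next knockout and -0.71 in the lowest. For Cideb these values were 0.18, 0.02 and -0.05. On this scale both gaps were under 0.71 of the range, and that of Pnpla2 was still over it. No cause was tested. Groups of 3, as the controls are, cannot be checked this way.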

How the results depend on the processing

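None of the 10 genes was called in any of 18 alternatives. The number of all genes called, 16 by edgeR, was 257 by DESeq2 and 235 in the authors' deposited table, and 8 to 30 with single libraries left out (8 without control replicate 3 or knockout replicate 1, 9 without knockout replicate 2 or 5, and 30 without knockout replicate 3). With the replicate block of numbers 1 to 3 it was 12, and the block changed no call among the 10 genes. This setting kept only knockout replicates 1 to 3, whose titles begin with 85, where those of the controls begin with 82. Values with the block therefore cannot tell the block apart from the choice of knockouts or the title numbers. The log2 fold changes of Dgat1, Dgat2, Pnpla2, Plin5, Cideb and G0s2 kept their sign under all alternatives, at -0.19 to -0.11, 0.06 to 0.19, 0.15 to 0.29, 0.07 to 0.51, 0.00 to 0.13 and 0.04 to 1.07. Signs turned in values that no test called. Gpam was -0.011 by limma-voom, -0.30 among the samples numbered 82, -0.23 without knockout replicates 1 and 2, and -0.068 to 0.15 with single libraries left out. Agpat2 was 0.054 without knockout replicates 1 and 2, -0.33 with the replicate block and -0.33 to -0.056 with single libraries left out. Lpin1 was 0.14 with the replicate block and -0.46 to 0.19 with single libraries left out. Lpin2 was -0.12 among the samples numbered 82 and -0.068 without knockout replicates 1 and 2, 0.34 with the replicate block and 0.0030 to 0.40 with single libraries left out. With single libraries left out the log2 ratio difference was -0.22 to 0.39 for G0s2 to Pnpla2, -0.32 to -0.24 for Dgat1 to Dgat2 and -0.55 to 0.039 for Lpin1 to Lpin2, and with the replicate block it was 0.11, -0.22 and -0.21. A correction for the trend of each library with gene length moved Lpin2 from 0.16 to 0.04 and turned no sign. The cause of these shifts was not tested, beyond the fewer samples of some settings. The lowest count was 499, for Dgat1, whose within-group SD of log2 CPM was 0.0984. The part of counting error in such a small spread was not tested. With the same libraries the interval was 0.713-fold to 3.37-fold for G0s2 and 0.942-fold to 1.24-fold for Dgat2, whose within-group SD of log2 CPM was 0.802 and 0.0731.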
